A study of Mus musculus with 24 samples.

Results

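The genes described here are 10 genes of iron handling and of the hepcidin axis, chosen by name out of 55421 genes counted in hepatocytes of 24 male mice: Hamp, Hamp2, Tfrc, Tfr2, Trf, Fth1, Ftl1, Slc40a1, Hfe and Id1. Each had 1 row in the count table, and all 10 were among the 13583 genes that passed the filter on low counts and were tested. The mice formed 4 groups of 6: young mice (C57BL/6N, 6 months per the labels) on a normal diet (young ND) or a high-fat diet (young HFD), and old mice (C57BL/6J, 24 months per the labels) on a normal diet (old ND) or a high-fat diet (old HFD). Per the labels the ND was Teklad Global 18% protein chow and the HFD was TestDiet 58Y1, in which 60% of the energy came from fat, and each was fed for 9 weeks. The study's methods instead name 58Y2, a diet with less fat, as the ND, and the paper's text gives ages that differ from those in the labels; the labels are followed here. Because the labels give the young and the old mice different C57BL/6 substrains, any difference of old from young mice may be one of age or of substrain, and the 2 cannot be told apart. The iron content of the diets is not given in the sources used here. Hepatocytes were isolated by collagenase perfusion, low-speed washes and a Percoll gradient, and polyadenylated RNA was sequenced in batches named in the labels as 1 and 2. Levels below are CPM, read counts scaled to library size with TMM factors, unless FPKM is named, and a gene is said to have risen or fallen only where edgeR's quasi-likelihood test across all genes, with batch as a term, gave a Benjamini-Hochberg adjusted p under 0.05. Unless another setting is named, calls are those of this fit, with all 24 mice and the filter on low counts.

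Hepcidin, the peptide encoded by Hamp, is made by hepatocytes and is the hormone that limits the entry of iron into blood. It binds ferroportin (Slc40a1), the only known cellular iron exporter, and causes its removal from the surface of gut cells and macrophages. Transcription of Hamp is driven by bone morphogenetic proteins (BMPs) acting through SMAD proteins, a pathway that also raises Id1, Id3, Smad7 and Atoh8, and by interleukin 6 acting through STAT3 in inflammation. Hfe and Tfr2 pass the level of iron-loaded transferrin on to this pathway, Trf encodes transferrin itself, and Tfrc encodes the receptor that takes it up. Fth1 and Ftl1 are the ferritin subunits that store iron in the cell.

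The 2 hepcidin genes lie next to each other on the minus strand of chromosome 7, Hamp (ENSMUSG00000050440) at chr7:30942368-30944032 and Hamp2 (ENSMUSG00000056978) at chr7:30922372-30924681 (GRCm38, GENCODE vM21). The 170 bases that precede exon 1 of transcript Hamp-201 and those that precede exon 1 of Hamp2-201 were 91.8% identical and are shown because the fitted differences of the 2 genes on the HFD had opposite signs. Capitals mark a hexamer that in Hamp reads GGCGCC, the core of the BMP-SMAD response element, and the core TTCNNNGAA of a STAT site, 6 bases further on (RefSeq promoter windows, GRCm38.p6, printed 5′ to 3′ on the minus strand; Hamp chr7:30944033-30944202, Hamp2 chr7:30924182-30924351).
Hamp: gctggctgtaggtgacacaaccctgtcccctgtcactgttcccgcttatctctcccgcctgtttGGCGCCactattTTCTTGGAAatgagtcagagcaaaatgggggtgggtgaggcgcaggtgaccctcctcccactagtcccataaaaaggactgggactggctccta
Hamp2: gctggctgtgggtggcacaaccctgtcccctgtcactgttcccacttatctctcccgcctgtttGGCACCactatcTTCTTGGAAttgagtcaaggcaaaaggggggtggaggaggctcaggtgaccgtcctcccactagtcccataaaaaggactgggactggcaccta

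Within the hexamer the genes differed by G4A, counted from 1 at the 5′ end of the Hamp hexamer, while the STAT core was TTCTTGGAA in both. The hexamer began 106 bases and the STAT core 94 bases before exon 1 of Hamp-201 and of Hamp2-201. Another transcript, Hamp2-202, starts further upstream (exon 1 at chr7:30924536-30924681), so the Hamp2 stretch lies inside the annotated gene and in an intron of Hamp2-202. Of all 32851 promoter windows of 300 bases, 11.9% held GGCGCC, 8.3% held TTCNNNGAA, 7.15% held the E-box CACGTG and 0.645% held both GGCGCC and TTCNNNGAA (each motif reads the same on both strands, so both strands were searched). Promoter windows were at hand for 7 of the 10 genes. Beside Hamp and Hamp2, the only match was GGCGCC in a Tfrc window (chr16:32608807-32608812), and no window of Tfr2, Hfe, Fth1 or Ftl1 held any of these letters. Trf, Slc40a1 and Id1 had no entry.

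A second set of sequences acts on the RNA. Iron regulatory proteins bind stem-loops called iron-responsive elements when cellular iron is low, which blocks translation where the element lies in a 5′ UTR and stabilises the RNA where it lies in a 3′ UTR. A search of GENCODE vM21 coding transcripts for such stem-loops (a loop of CAGTGN whose last base is not G, an upper stem of 5 pairs, an unpaired C on its 5′ side and at least 4 of 5 lower pairs, G-U pairs allowed) found it in the 5′ UTR of 6 of 21877 genes (0.0274%), Fth1, Ftl1 and Slc40a1 among them, and in the 3′ UTR of 7 genes (0.032%), Tfrc among them with 4 elements. They are shown, with the loop in capitals, because they act on the RNA rather than on transcription; for the 5′ UTR genes Fth1, Ftl1 and Slc40a1 the protein can change while the read count does not.
Fth1, chr19:9982733-9982759, plus strand: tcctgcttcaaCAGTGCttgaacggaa
Ftl1, chr7:45459780-45459806, minus strand: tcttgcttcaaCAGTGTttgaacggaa
Slc40a1, chr1:45925466-45925492, minus strand: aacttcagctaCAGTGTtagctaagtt
Tfrc, element 1 of 4, chr16:32631220-32631246, plus strand: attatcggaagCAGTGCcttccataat
Tfrc, element 4 of 4, chr16:32631711-32631737, plus strand: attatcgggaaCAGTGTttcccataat

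The libraries held 9200332 to 22185069 counted reads, and the old HFD libraries were the shallowest (9200332 to 13517632). Markers of hepatocytes were abundant in every library: the summed CPM of 11 hepatocyte genes ran from 60868.7 to 172492.7, and Alb alone from 29007.9 to 128234.7. Markers of Kupffer cells and macrophages were present at low levels that differed between groups: the sum over 14 such genes was 2.216 to 104.2 CPM in young ND, 19.21 to 261.9 in young HFD, 79.2 to 1662.6 in old ND and 113 to 865.6 in old HFD, and 13 of the 14 rose in old ND against young ND. Fewer cells of a type and less RNA per cell cannot be told apart in such bulk samples. A pair of libraries stood apart. Old HFD replicate 2 had 20.28 CPM of Hamp where the other 5 old HFD mice had 216.5 to 547.9. Values without it are given beside several of the results that rest on it, but not beside all. Old ND replicate 4 had the highest macrophage sum (1662.6 CPM), the lowest hepatocyte sum (60868.7 CPM) and 746.7 CPM of Lcn2, an acute-phase protein, against a group median of 10.59. No library repeated another of its own group: between mice of a group, counts differed by at least 14.37 times the chi-square expected from sampling.

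The question of the first comparisons was what a HFD did to these genes in young and in old mice. Of the 10 genes, 1 rose in young HFD against young ND (Hamp2) and 1 rose in old HFD against old ND (Tfrc), and none fell, where 3.5% and 3.01% of all tested genes were called. The median log2 fold change of the 10 genes was -0.04 in young and -0.16 in old mice, against 0.01 and -0.01 over all genes. Between old ND and young ND (8.5% of all genes called) and between old HFD and young HFD (2.24% called) none of the 10 genes was called by edgeR in this fit, and without the filter on low counts Hamp2 (lower) and Tfrc (higher) were called in old HFD against young HFD; over all genes 3020 and 2848 genes had an unadjusted p under 0.05 there, and DESeq2 called 1 of the 10 in each. Between old HFD and young ND, which differ in both age and diet, 3 were called, with Hamp2 and Tfrc higher and Hamp lower, where 30.2% of all genes were called. These comparisons share groups of mice, so the same mice enter several of them.

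**Figure D1:**
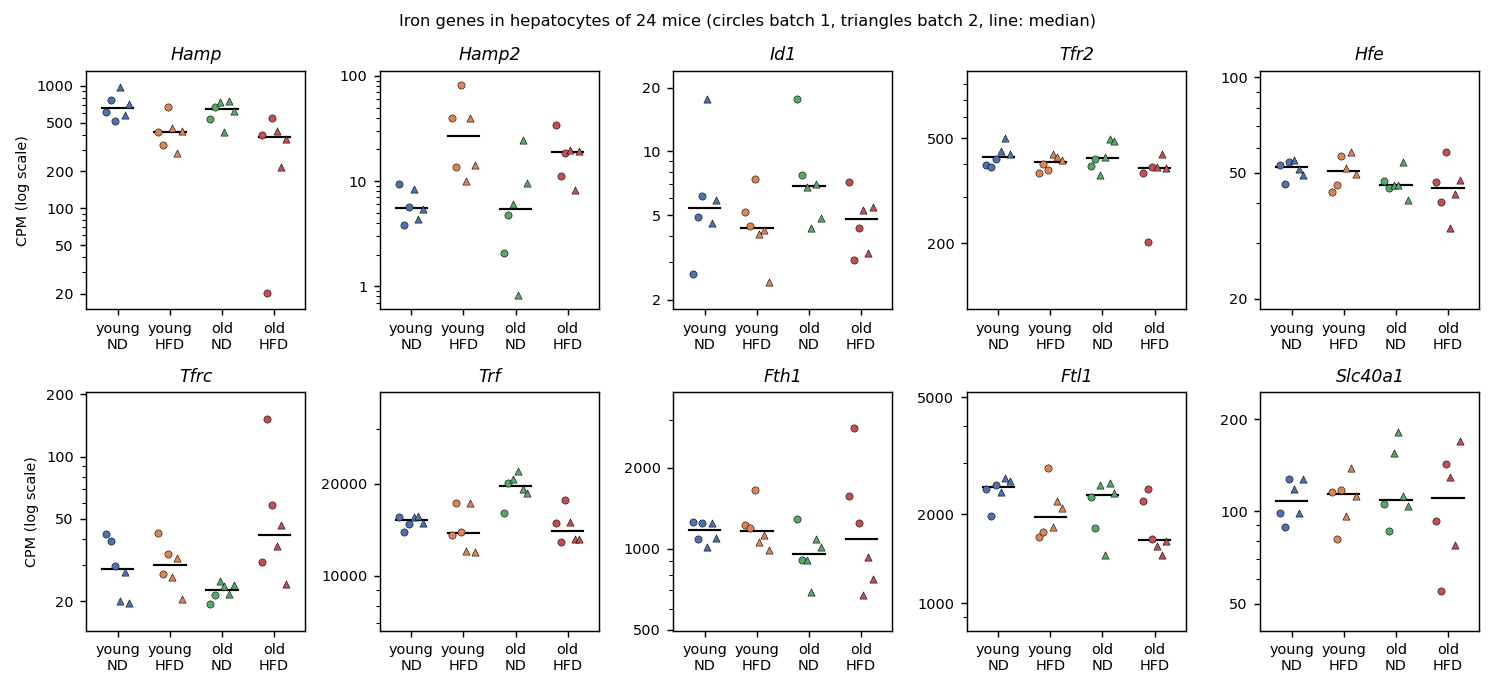
CPM of the 10 genes on a log scale for each of the 24 mice, by group, with the batch as the marker shape and the group median as a line. Hamp2 is higher in all 6 young HFD mice (10.02 to 82.52 CPM) than in any young ND mouse (3.827 to 9.412 CPM), and old HFD replicate 2 lies at the bottom for Hamp and at the top for Tfrc and Fth1.

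Hamp, the hepcidin gene, had a lower median on the HFD at both ages, and whether the difference within an age passed the test depended on the setting. Young mice had 520.5 to 977.5 CPM on the ND, with a median of 657.5, and 284.5 to 669.3 CPM on the HFD, with a median of 423.4. In old ND it measured 421.7 to 751.5 CPM (median 645.1) and in old HFD 20.28 to 547.9 CPM (median 380.5). The groups overlapped at both ages. The fitted log2 difference was -0.68 ± 0.39 (SE, n = 6 and 6) in young mice (edgeR adjusted p = 0.333) and -0.91 ± 0.40 in old mice (edgeR adjusted p = 0.178), and it was below 0 in each batch at each age, from -0.43 in batch 1 to -0.93 in batch 2 in young mice and from -0.94 to -0.89 in old mice. Without the filter on low counts edgeR called Hamp lower at both ages (adjusted p = 0.003 in young and 1.6e-05 in old mice), and with only the mice of the groups compared it did so in young mice (adjusted p = 0.0279). The fit without the filter covered 32336 genes in place of 13583. Its adjusted p lay far below that of the filtered fit for the same mice and counts, for a reason not tested. Calls without the filter, here and below, are therefore given only to show how results depend on the setting.

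Without old HFD replicate 2, which adds to the spread shared by all groups, the difference in young mice was -0.70 (edgeR adjusted p = 0.0483) and the difference in old mice -0.69 (edgeR adjusted p = 0.109). The age by diet term for Hamp was -0.23 ± 0.55 on the log2 scale (edgeR adjusted p = 0.928). Hamp fell between young ND and old HFD, by 1.07 ± 0.40 on the log2 scale or 2.10-fold (edgeR adjusted p = 0.0428), although the highest old HFD mouse (547.9 CPM) exceeded the lowest young ND mouse (520.5 CPM). In the same comparison the median of Alb was 58599.7 CPM in old HFD and 93567.0 in young ND, and that of the summed hepatocyte markers 100481.9 and 134954.7 CPM. Of the 11 hepatocyte markers 2 rose and 3 fell by edgeR, and 12 of the 14 macrophage markers rose; the part of these differences in the fall of Hamp was not tested. Without old HFD replicate 2 the log2 difference was -0.83 (edgeR adjusted p = 0.0103). When each of the 24 mice was left out in turn, this fall passed the threshold in 13 fits and missed it in the others (adjusted p up to 0.0916), which left out young ND replicates 1, 2, 4, 5 and 6, young HFD replicates 1 and 5, old ND replicate 2 or old HFD replicates 4, 5 and 6. The call was also lost without the batch term, with RLE scaling and with DESeq2 (adjusted p = 0.0523, 0.0503 and 0.0537), and with only the mice of those groups (edgeR adjusted p = 0.147). Between old ND and young ND the log2 difference of Hamp was -0.16 ± 0.39 (edgeR adjusted p = 0.853).

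Hamp2, the second hepcidin gene of the mouse, ran the other way. Young mice had 3.827 to 9.412 CPM on the ND, with a median of 5.546, and 10.02 to 82.52 CPM on the HFD, with a median of 27.14 and no overlap, a separation seen in 4.83% of all tested genes in this comparison. It rose by 2.40 ± 0.58 on the log2 scale, or 5.29-fold (edgeR adjusted p = 0.0251), and by 2.82 in batch 1 and 1.85 in batch 2. In the same comparison the median log2 difference was 2.15 over the 14 macrophage markers, 1.40 over 12 sinusoidal endothelial and 1.53 over 12 stellate markers, against 0.01 over all genes. Of these markers 1, 1 and 2 rose, and 4, 7 and 3 without old ND replicate 4; the part of those cells in this result was not tested. The call was lost, with adjusted p up to 0.0797, when young ND replicate 2 or 3 or young HFD replicate 3 or 5 was left out. It was also lost by limma on log2(FPKM + 0.1) (adjusted p = 0.0521), by limma on log2(FPKM + 1) without the filter (adjusted p = 0.117) and by edgeR within each batch alone (adjusted p = 0.0582 and 0.592). With a replicate block in place of batch edgeR did not call Hamp2 there either. In the 6 old ND mice Hamp2 ranged from 0.817 to 24.59 CPM (median 5.399), wider than in any other group relative to its median, and in old HFD from 8.264 to 34.16 CPM (median 18.89). The difference in old mice was 1.15 ± 0.59 on the log2 scale (edgeR adjusted p = 0.248), 2.60 in batch 1 and 0.64 in batch 2, and without the filter on low counts 1.12 with a call (edgeR adjusted p = 4.2e-07). The age by diet term was -1.25 ± 0.80 (edgeR adjusted p = 0.626), and it too passed without the filter. In old HFD against young ND, Hamp2 rose by 1.57 ± 0.57 on the log2 scale (edgeR adjusted p = 0.0398), a call lost without any of 7 mice: young ND replicate 2, 3, 5 or 6 or old HFD replicate 1, 4 or 6.

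Because both genes are counted in the same library, the share of hepcidin reads that came from Hamp2 does not depend on the scaling. It was 0.499% to 1.52% in young ND and 2.16% to 12.4% in young HFD, and 0.193% to 3.17% in old ND and 3.24% to 35.3% in old HFD. At each age every HFD mouse had a larger share than every ND mouse, with medians of 0.808% and 6.36% in young and 0.760% and 4.74% in old mice. In old mice the margin was narrow, at 3.242% in old HFD replicate 3 and 3.169% in old ND replicate 5. The 95% Wilson intervals of these mice overlapped (2.853% to 3.682% and 2.855% to 3.515%). The lowest and highest shares were those of the libraries that stood apart. Old ND replicate 4 had 10 Hamp2 and 5162 Hamp reads (0.193%, 95% Wilson interval 0.105% to 0.355%), and old HFD replicate 2 had 144 Hamp2 and 264 Hamp reads (35.3%, 30.8% to 40.0%); without it the highest old HFD share was 7.96%. These intervals cover counting error only.

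**Figure D2:**
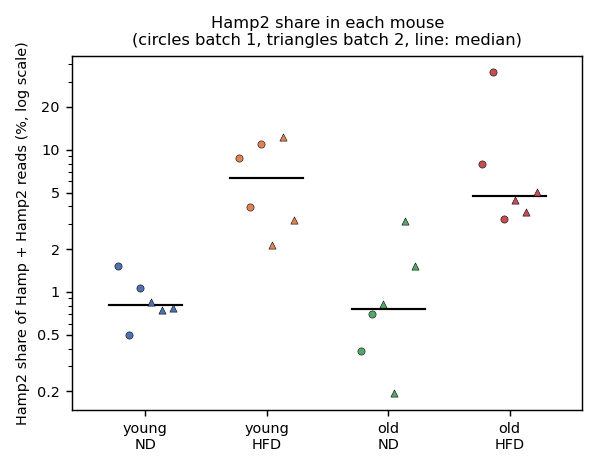
Share of Hamp and Hamp2 reads that were Hamp2, in percent on a log scale, for each mouse by group, with batch as the marker shape and the median as a line. Shares on the HFD lie above all shares on the ND of the same age, by a narrow margin in old mice (3.24% against 3.17%).

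The near identity of these genes limits how finely they can be counted. Transcripts Hamp-201 and Hamp2-201 were 92.6% identical over 420 aligned bases. Of all 50-base windows of Hamp-201, 16.6% occur unchanged in a Hamp2 transcript, against 3.87% of 75-base and 0% of 100-base windows, and how reads matching both were treated is not given in the sources used here. A lincRNA on the opposite strand, Gm44662, shares 15.3% of the exonic bases of Hamp2 and none of Hamp, with at most 1 read in any library.

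Id1 (ENSMUSG00000042745, chr2:152736251-152737410), a transcription regulator and early target of BMP-SMAD signalling, was not called by edgeR in any comparison with the filter on low counts, and without it was called lower in old HFD against old ND (-0.78, adjusted p = 0.0446). Young mice had 2.649 to 17.68 CPM on the ND, with a median of 5.393, and 2.432 to 7.389 CPM on the HFD, with a median of 4.353. In old ND it measured 4.33 to 17.72 CPM (median 6.895) and in old HFD 3.073 to 7.174 (median 4.820). All groups overlapped, and 1 mouse each in young ND (17.68 CPM) and old ND (17.72 CPM) lay above the rest. The log2 difference on the HFD was -0.65 ± 0.39 in young (edgeR adjusted p = 0.356) and -0.75 ± 0.38 in old mice (edgeR adjusted p = 0.253). Without young ND replicate 4, the mouse at 17.68 CPM, the difference in young mice was -0.08 (edgeR adjusted p = 0.933), and without old ND replicate 1, the mouse at 17.72 CPM, that in old mice was -0.35 (edgeR adjusted p = 0.668). The batches did not share a direction in young mice, at 0.32 in batch 1 and -1.36 in batch 2. Limma on log2(FPKM + 1) called Id1 lower in old HFD against young ND (-1.11, adjusted p = 0.0418), where edgeR on the counts gave -0.58 ± 0.39 (adjusted p = 0.264), and 0.01 without young ND replicate 4 (adjusted p = 0.986).

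Some other targets of the BMP-SMAD pathway passed the test. Of 7 feedback targets tested, Id3, a relative of Id1, fell in young HFD against young ND by 1.47 ± 0.38 on the log2 scale (edgeR adjusted p = 0.0358). It went from 39.87 to 160.3 CPM to 22.06 to 39.78 CPM without overlap, a separation seen in 4.83% of all tested genes. Between the old groups Id3 differed by -1.24 ± 0.38 (edgeR adjusted p = 0.0653). The median log2 difference of the 7 targets was -0.51 in young and -0.38 in old mice on the HFD, against 0.01 and -0.01 over all genes. Smad6 and Id4, another relative of Id1, went the other way in young mice, without a call. Their log2 differences there were 0.38 ± 0.30 and 0.999 ± 0.61 (edgeR adjusted p = 0.525 and 0.369). Between the old groups they were -0.33 ± 0.30 and 0.01 ± 0.66 (edgeR adjusted p = 0.558 and 0.996). Between old HFD and young ND, where 30.2% of all genes were called, 3 of the 7 fell: Id3 by 1.44 ± 0.38, Atoh8, a transcription factor, by 1.11 ± 0.29 and Smad7, the inhibitory SMAD, by 0.76 ± 0.28 on the log2 scale (edgeR adjusted p = 0.0076, 0.00697 and 0.0439). Smad6 and Id4 went the other way in this comparison too, at 0.26 ± 0.31 and 1.23 ± 0.62 without a call (edgeR adjusted p = 0.537 and 0.130). In old HFD replicate 2 Atoh8 was at 1.152 CPM and Id3 at 4.302 CPM. Without that mouse Id3 and Atoh8 kept their calls (edgeR adjusted p = 0.00882 and 0.00159) and Smad7 did not (0.0652). Id4 was then called higher (1.51 on the log2 scale, edgeR adjusted p = 0.0356).

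Upstream of these targets, Smad1, which carries the BMP signal to the nucleus, was 14.43 to 18.9 CPM in young ND and 8.363 to 13.09 CPM in young HFD, without overlap (4.83% of all genes). It fell there by 0.74 ± 0.13 on the log2 scale (edgeR adjusted p = 0.00314), and by 0.50 ± 0.13 between young ND and old HFD (edgeR adjusted p = 0.00802). Group medians are listed here and below in the order young ND, then young HFD, then old ND and last old HFD. Hjv, the BMP co-receptor hemojuvelin, was not called with all mice in the fit and had medians of 90.02, 108.9, 97.72 and 118.6 CPM. Without old ND replicate 4 it was called higher in old HFD against young ND (0.38 on the log2 scale, edgeR adjusted p = 0.0332). Bmp6, the main iron-responsive ligand and a product of endothelial cells, measured 0.3784 to 12.42 CPM over all mice and was not called. Bmp2 rose in old HFD against young ND by 1.50 ± 0.49 on the log2 scale (edgeR adjusted p = 0.0245), and 9 of 12 markers of sinusoidal endothelial cells rose in the same comparison; the part of those cells in the Bmp2 result was not tested. Tmprss6, the protease that cleaves hemojuvelin and so lowers hepcidin, fell by 0.51 ± 0.14 in that comparison (edgeR adjusted p = 0.0102).

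Across the 24 mice, after the means of group and batch were removed, Hamp and Id1 had a Pearson r of 0.38 (permutation p = 0.0211, adjusted over 4 relations 0.0842) and a Spearman rho of 0.53 (permutation p = 0.0126, adjusted 0.0477). Hamp and Smad7 had r = 0.15 (permutation p = 0.281, adjusted 0.281) and rho = 0.40 (permutation p = 0.0238, adjusted 0.0477). Hamp and Saa1, an acute-phase gene, had r = -0.29 (permutation p = 0.0624, adjusted 0.125) and rho = -0.08 (permutation p = 0.731, adjusted 0.731). Hamp and Tfrc had r = -0.71 (permutation p = 0.117, adjusted 0.156) and rho = -0.43 (permutation p = 0.0873, adjusted 0.116). Without the 2 mice farthest from the median of the second gene, r was 0.46 for Id1, 0.17 for Smad7, -0.39 for Saa1 and -0.25 for Tfrc, with adjusted permutation p from 0.223 to 0.318, so the size of the Tfrc relation rests on those mice. Within batch 1 (11 mice) r was 0.42 for Id1, 0.07 for Smad7, -0.93 for Saa1 and -0.77 for Tfrc, and within batch 2 (13 mice) 0.62, 0.59, -0.29 and -0.58. Without old HFD replicate 2, r was 0.38 for Id1, 0.44 for Smad7, -0.15 for Saa1 and -0.13 for Tfrc. The rank relations that had passed after adjustment did not pass without that mouse (rho = 0.33 for Id1 and 0.45 for Smad7, adjusted permutation p = 0.218 and 0.101), nor without the 2 farthest mice (rho = 0.51 and 0.40, adjusted permutation p = 0.117 for both), nor within either batch (lowest adjusted permutation p = 0.103).

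The 5 tested genes whose log2 CPM followed Hamp most closely over the 24 mice were Mcm3ap, Fras1, Atf7, Zfp568 and Nhsl1, with Pearson r from 0.91 to 0.93. All 5 fell to r between 0.47 and 0.63 without old HFD replicate 2. Among the BMP-SMAD targets, r with all mice and without that mouse was 0.87 and 0.47 for Atoh8, 0.85 and 0.79 for Id3, 0.45 and 0.63 for Smad7, and 0.44 and 0.48 for Id1. These are descriptions over mice that share groups and batches.

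**Figure D3:**
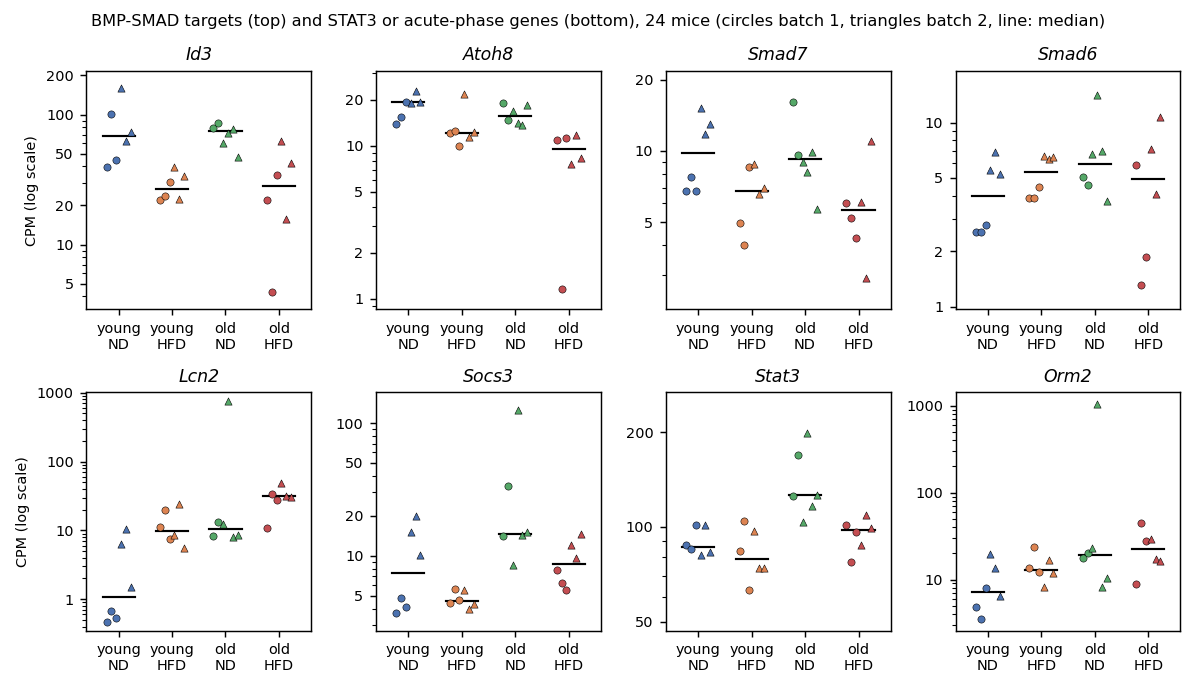
CPM on a log scale of the BMP-SMAD targets Id3, Atoh8, Smad7 and Smad6 and of Lcn2, Socs3, Stat3 and Orm2 for each mouse by group, with batch as the marker shape and the median as a line. Id3 is lower in young HFD (22.06 to 39.78 CPM) than in young ND (39.87 to 160.3 CPM), and 1 old ND mouse stands far above the others for Lcn2 (746.7 CPM) and Orm2 (1052.7 CPM).

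Genes of the other arm that drives Hamp, interleukin 6 and STAT3, differed in both directions with age on the ND while Hamp was not called: of 7 genes 2 rose and 1 fell, where 8.5% of all genes were called, and 1 rose without old ND replicate 4. Stat3 itself measured 81.67 to 101.4 CPM in young ND and 103.8 to 198.1 in old ND, without overlap (3.8% of all genes), and rose by 0.64 ± 0.15 on the log2 scale (edgeR adjusted p = 0.00901; 0.53 and 0.0257 without old ND replicate 4). Socs3, a feedback inhibitor induced by STAT3, rose by 1.86 ± 0.47 on the log2 scale (edgeR adjusted p = 0.0157), and by 0.99 without a call when old ND replicate 4 was left out (edgeR adjusted p = 0.146). Creb3l3, a liver transcription factor that can act on Hamp, fell by 0.41 ± 0.12 (edgeR adjusted p = 0.0404; 0.119 without that mouse). Of 15 acute-phase genes, 6 rose and none fell in old ND against young ND, against the same 8.5% of all genes, and 2 rose without that mouse. Macrophage markers rose in the same comparison (13 of 14, and 11 of 14 without that mouse), and their part in these results was not tested. In old HFD against old ND, Stat3 fell by 0.56 ± 0.15 and Socs3 by 1.79 ± 0.48 on the log2 scale (edgeR adjusted p = 0.0363 and 0.0396). Creb3l3 rose there by 0.50 ± 0.12 (edgeR adjusted p = 0.0309). Without old ND replicate 4 only Creb3l3 kept its call, with edgeR adjusted p of 0.081, 0.136 and 0.0388 for the 3 genes. The same held without old HFD replicate 2, with edgeR adjusted p of 0.0704, 0.0699 and 0.04265. In old ND replicate 4 itself Hamp was at 421.7 CPM, the lowest of its group, beside Saa1 at 9817.9 CPM. The summed hepatocyte markers of that library were also the lowest, at 60868.7 CPM against a group median of 134703.2. The part of this in its Hamp level was not tested.

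Hfe (ENSMUSG00000006611, chr13:23702034-23710854) and Tfr2 (ENSMUSG00000029716, chr5:137569840-137587481), the sensors of transferrin-bound iron, were not called in any comparison. Hfe had group medians of 52.03, 50.47, 45.72 and 44.74 CPM. Tfr2 had medians of 426.2, 407, 421.2 and 387.5 CPM. All groups overlapped for both genes. The largest absolute log2 difference over the 5 comparisons of groups was 0.20 for Hfe and 0.25 for Tfr2, both between old HFD and young ND (edgeR adjusted p = 0.183 and 0.123). Old HFD replicate 2 had 202.7 CPM of Tfr2, where the other 5 mice of its group had 370.6 to 436.9 CPM. Without that mouse the log2 difference of Tfr2 between old HFD and young ND was -0.14 (edgeR adjusted p = 0.252).

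Tfrc (ENSMUSG00000022797, chr16:32608920-32632794), the transferrin receptor through which cells take up iron, rose on the HFD in old mice. It measured 19.49 to 25.13 CPM in old ND (median 22.64) and 24.32 to 151.5 CPM in old HFD (median 41.88). Only 1 old HFD mouse lay inside the range of old ND. The rise was 1.16 ± 0.29 on the log2 scale, or 2.23-fold (edgeR adjusted p = 0.0307), 1.92 in batch 1 and 0.63 in batch 2. Without old HFD replicate 2, the mouse at 151.5 CPM, it was 0.76 (edgeR adjusted p = 0.0427), and the call was lost without old ND replicate 1 or 2 (highest edgeR adjusted p = 0.0948). It was also lost by edgeR with only the mice of the groups compared (1.19, adjusted p = 0.302) and within each batch alone (adjusted p = 0.219 and 0.317), and by limma on the FPKM (adjusted p from 0.0713 to 0.176).

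In young mice Tfrc measured 19.64 to 42.19 CPM on the ND (median 28.61) and 20.46 to 42.63 CPM on the HFD (median 29.80), a log2 difference of 0.07 ± 0.27 (edgeR adjusted p = 0.928). The age by diet term was 1.09 ± 0.40 (edgeR adjusted p = 0.531), and 0.71 without old HFD replicate 2 (edgeR adjusted p = 0.621). None of the 13583 genes passed the adjusted threshold for that term in this fit by edgeR, against 1247 genes at an unadjusted p under 0.05, 7 called by DESeq2 and 587 called by edgeR without the filter on low counts, Tfrc and Hamp2 among the latter. Old HFD exceeded young HFD by 0.87 ± 0.28 on the log2 scale (edgeR adjusted p = 0.0888), by 0.41 without old HFD replicate 2 (edgeR adjusted p = 0.310), and with a call without old HFD replicate 1 (edgeR adjusted p = 0.0315). Old HFD exceeded young ND by 0.93 ± 0.28 (edgeR adjusted p = 0.0146), and without old HFD replicate 2 by 0.46 with no call (edgeR adjusted p = 0.0808).

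**Figure D4:**
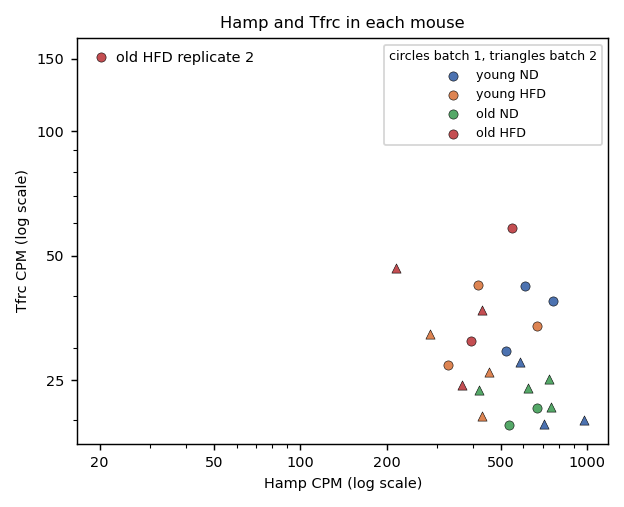
Tfrc CPM against Hamp CPM, both on log scales, for the 24 mice coloured by group with batch as the marker shape. Old HFD replicate 2 (20.28 CPM of Hamp, 151.5 CPM of Tfrc) lies far from the other 23 mice, among which r was -0.13 after group and batch means were removed.

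Trf (ENSMUSG00000032554, chr9:103204001-103230444), which encodes the plasma iron carrier transferrin, had its highest median in old ND. It measured 13916.3 to 15621.2 CPM in young ND (median 15213.2) and 16001.1 to 21996.8 CPM in old ND (median 19627.3), without overlap. Of all tested genes, 3.8% separated in this way in that comparison. On the HFD it measured 11949.3 to 17309.0 CPM in young mice (median 13762.9) and 12916.9 to 17628.1 CPM in old mice (median 14012.3). The difference of old ND from young ND was 0.37 ± 0.13 on the log2 scale (edgeR adjusted p = 0.0889), and that of old HFD from old ND was -0.43 ± 0.14 (edgeR adjusted p = 0.0729). Neither passed the threshold with edgeR and all mice in the fit, the latter passed without old HFD replicate 3 (edgeR adjusted p = 0.0484), and DESeq2 called both. Limma with its filter, on log2(FPKM + 1) and on log2(FPKM + 0.1), called the difference of old ND from young ND. The signs were the same in both batches, at 0.31 and 0.38 for age and -0.30 and -0.53 for diet. Gm20425, which GENCODE vM21 annotates over 63.5% of the exonic bases of Trf on the same strand, had no row in the count table.

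Neither ferritin subunit was called by edgeR with all mice in the fit. Ftl1 (ENSMUSG00000050708, chr7:45457944-45459884), the light chain, had medians of 2479.0, 1963.8, 2333.2 and 1637.4 CPM, within ranges that overlapped from 1451.8 to 2887.1. It differed by -0.42 ± 0.17 on the log2 scale between old HFD and young ND (edgeR adjusted p = 0.0589), and was called there when young ND replicate 2, young HFD replicate 3, old HFD replicate 1 or old HFD replicate 2 was left out (the last with -0.52, edgeR adjusted p = 0.0245) and by limma on log2(FPKM + 1) (-0.79, adjusted p = 0.0064). A gene on the other strand, Gm10252, covers 26.5% of its exonic bases and had at most 89 reads, and Ftl1 has processed copies among which reads could be split. Fth1 (ENSMUSG00000024661, chr19:9980598-9985098), the heavy chain, had medians of 1170.3, 1162.4, 959.9 and 1085.8 CPM, and its largest absolute log2 difference was 0.28, in old HFD against old ND (edgeR adjusted p = 0.472; 0.02 without old HFD replicate 2, where it reached 2813.4 CPM).

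Slc40a1 (ENSMUSG00000025993, chr1:45908068-45926523), the ferroportin gene, had medians of 108.4, 113.7, 109.3 and 110.9 CPM. Its spread was wider in old mice, at 86.09 to 181 CPM on the ND and 55.16 to 169.1 CPM on the HFD, than in young mice, at 81.53 to 138.2 CPM. The largest absolute log2 difference was 0.11 (edgeR adjusted p = 0.799). Macrophages also express this gene, and the macrophage sums given above differed between groups; their part in its level was not tested.

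**Figure D5:**
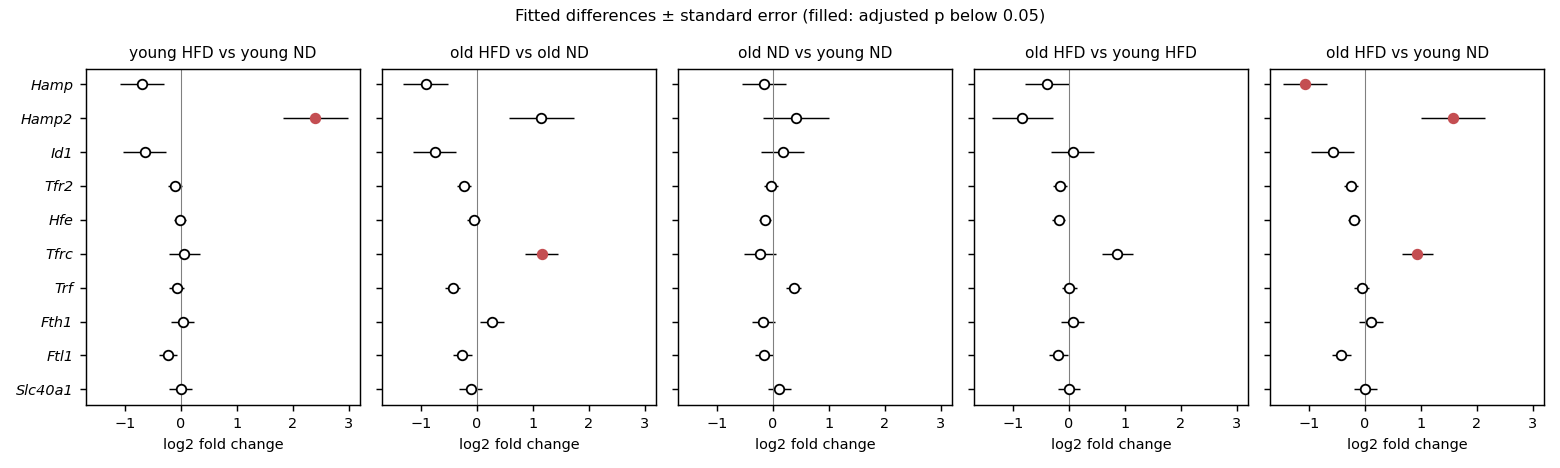
Fitted log2 fold changes of the 10 genes with their standard errors in 5 comparisons of groups, filled where the adjusted p was under 0.05. Hamp2 is filled in young HFD against young ND (2.40), Tfrc in old HFD against old ND (1.16), and Hamp (-1.07), Hamp2 (1.57) and Tfrc (0.93) in old HFD against young ND.

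In the deposited FPKM, which are scaled to length and adjusted for batch, the order of the 10 genes changed little between groups. Read counts per exonic base put Trf highest instead. In young ND the medians were 15213.2 CPM over 3320 exonic bases for Trf, 2479.0 over 1340 for Ftl1 and 657.5 over 410 for Hamp. The order given here is therefore that of the deposited FPKM alone, and the reason for the difference was not tested. Ftl1 was highest in every group, with medians of 2001.7, 1468.8, 1698.2 and 1098.8 FPKM. Hamp and Trf followed, with Hamp at 745.6 FPKM above Trf at 588 in young ND, although their ranges overlapped (468.2 to 1008.6 and 553.8 to 608.8), and Trf above Hamp in the other groups. Fth1 was the fourth in each group, from 261.3 to 315.4 FPKM, and Tfr2 the fifth, from 22.68 to 26.18. Hamp2 was the ninth on the ND at both ages (3.543 and 3 FPKM) and the sixth on the HFD (15.12 and 9.752 FPKM). Id1, Slc40a1 and Hfe had medians from 5.504 to 13.38 FPKM with overlapping ranges, and Tfrc was the lowest in every group, from 1.086 to 1.843 FPKM.

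A list of 100 other genes of iron and heme biology and hepcidin control, of which 92 were tested, gives the setting. In young HFD against young ND none rose and 3 fell (3.26%, against 3.5% of all genes): Smad1, Id3 and Abcb10, a mitochondrial inner membrane transporter that takes part in heme synthesis (-0.53 ± 0.12 on the log2 scale, edgeR adjusted p = 0.0179). Here 10 were called without old HFD replicate 2 and 7 without old ND replicate 4. In old HFD against old ND 1 rose and 3 fell, Creb3l3, Stat3, Socs3 and Slc48a1, a heme transporter (-0.48 ± 0.13, edgeR adjusted p = 0.0459), which is 4.35% against 3.01% of all genes, and 3 and 2 were called without those mice. Of the genes named, only Creb3l3 and Slc48a1 kept their calls without either mouse. Atoh8 was called in addition without old HFD replicate 2 (-0.69, edgeR adjusted p = 0.04265). In old ND against young ND 10 rose and 5 fell (16.3%, against 8.5% of all genes), but 5 were called without old ND replicate 4. Those called in all mice included Hmox1, the heme-degrading enzyme (1.52 ± 0.41), Hpx, which binds free heme in plasma (0.97 ± 0.26), Steap4, a metalloreductase (1.33 ± 0.34), and Lcn2, which binds iron-carrying siderophores (5.01 ± 1.07); of these Steap4 kept its call without old ND replicate 4 (0.70, edgeR adjusted p = 0.0341), and Lcn2 (1.80), Hmox1 (1.22) and Hpx (0.63) did not (edgeR adjusted p = 0.0691, 0.0762 and 0.0595). In old ND against young ND 13 of 14 macrophage, 10 of 12 stellate and 6 of 12 sinusoidal endothelial markers also rose. Without old ND replicate 4 these counts were 11, 6 and 0. The part of those cells in the list was not tested. In old HFD against young HFD only Acvr2b, an activin and BMP receptor, was called (1.75 ± 0.36, edgeR adjusted p = 0.0171).

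In old HFD against young ND 15 of the 92 genes rose and 19 fell, 37.0% against 30.2% of all genes, and 30 were called without old HFD replicate 2. Heme synthesis genes Alas2 (-1.06 ± 0.18) and Fech (-0.58 ± 0.15) fell, as did the mitochondrial iron importer Slc25a37 (-0.60 ± 0.13). The list of 13 heme synthesis and breakdown genes did not fall as a whole. Its median log2 difference was 0.04, as over all genes, 2 fell and 1 rose (Hmox1, 1.23 ± 0.40). Alas1, another heme synthesis gene, was not called (0.59 ± 0.49, edgeR adjusted p = 0.376). Aco1, the iron regulatory protein that doubles as cytosolic aconitase, fell by 0.67 ± 0.17, and Ncoa4, which delivers ferritin for breakdown, fell by 0.72 ± 0.20 on the log2 scale (edgeR adjusted p = 0.00589 and 0.0109). Slc39a14, an importer of iron not bound to transferrin, rose by 0.51 ± 0.15, and Fgl1, a hepatocyte-secreted BMP antagonist, rose by 1.50 ± 0.42 (edgeR adjusted p = 0.016 and 0.0103). Fgl1 also rose in old ND against young ND, by 1.64 ± 0.42 (edgeR adjusted p = 0.0155; 0.0808 without old ND replicate 4). Between old HFD and old ND it differed by -0.14 ± 0.42 (edgeR adjusted p = 0.885). Cp, the ferroxidase ceruloplasmin, was not called in any comparison (medians 1286.5, 1132.9, 1478.0 and 1292.7 CPM).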

How the data were processed

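RNA was sequenced from hepatocytes of 24 male mice in 4 groups of 6, with 3 mice per group in each batch except old ND (2 in batch 1 and 4 in batch 2). Per the labels and the study's methods, the authors aligned reads to mm10 with STAR 2.7.3a and counted them per gene with HTSeq 0.11.2; the deposited counts are whole reads, not normalized. The authors also deposited FPKM values, adjusted for batch with ComBat according to the name they gave them. Strandedness and duplicate handling are not given in the sources used here. Groups came from the labels, and p-values measure the spread between mice. The 10 genes and the lists were chosen with earlier results of these data known.

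Counts were tested with edgeR 4.0.16 (R 4.3.3): genes kept by filterByExpr, TMM scaling, a quasi-likelihood fit of group and batch over all 24 mice, and Benjamini-Hochberg adjustment over 13583 genes with a threshold of 0.05. Standard errors are the log2 fold change divided by the root of the F statistic. Alternatives were DESeq2 1.42.0, limma 3.58.1 on log2(FPKM + 1) or log2(FPKM + 0.1), RLE or total-count scaling (the latter added after seeing the data), no filter, no batch term, a replicate block, each batch alone, only the groups compared, and leaving out each mouse. Correlations used log2 CPM with group and batch means removed and 100000 two-sided permutations within group and batch. All 10 genes are named in every comparison. Of the other listed genes, those called were eligible (at most 20 per comparison by adjusted p), with Smad7, Bmp6, Bmp2, Hjv, Tmprss6, Slc39a14 and Cp in any case, and the 5 nearest to Hamp by correlation. Uncalled genes of a list are also named where they went against the called ones. Sequences came from RefSeq promoters (GRCm38.p6) and GENCODE vM21 transcripts. The scripts were tested on simulated data.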

Additional observations from a re-analysis of the deposited data

Results flagged for a closer look

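Old HFD replicate 2 lay far from the other mice of its group for 2 of the 10 genes. Its Hamp level was 20.28 CPM, and the next lowest old HFD mouse had 216.5 CPM, a gap of 0.718 of the group's log2 range. Its Tfr2 level was 202.7 CPM, and the next lowest had 370.6 CPM, a gap of 0.786 of the range. Each gap exceeds Dixon's critical value at the 95% level for 6 samples. In all, 40 sets of 6 mice (10 genes in 4 groups) were examined, and chance alone marks about 1 in 20. With the filter on low counts and all 24 mice, no age by diet difference passed edgeR's threshold for any of the 10 genes; without the filter 2 of the 10 passed.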

How the results depend on the processing

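Among the member differences that were called or reached 0.3 on the log2 scale, 194 of 249 values under other settings kept their direction and their side of the threshold, as did 470 of 504 with 1 mouse left out. Id1 turned to 0.32 in young HFD against young ND and 0.074 in old HFD against young ND in batch 1 alone, and Hamp2 in old ND against young ND to -0.89 in batch 1 alone, -0.22 on log2(FPKM + 1) with or without the filter and -0.43 on log2(FPKM + 0.1). Leaving out 1 mouse gave -0.33 to 0.70 for that Hamp2 value and -0.79 to 0.0094 for that of Id1. The causes were not tested.

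The number of the 10 genes called (1, 1, 0, 0, 3 and 0 in young HFD against young ND, old HFD against old ND, old ND against young ND, old HFD against young HFD, old HFD against young ND and the age by diet term) moved as follows, in that order where several are given. It was 2, 4, 2 (old HFD against young HFD) and 2 (age by diet) without the filter. It was 2 and 0 with only the groups compared, 0, 0 and 0 (old HFD against young ND) in batch 1 alone and likewise 0, 0 and 0 in batch 2 alone, where fewer mice enter. DESeq2 called 2 in old HFD against old ND and 1 in each comparison of age. On log2(FPKM + 1) the count was 1 for old ND against young ND, on log2(FPKM + 0.1) it was 0 in young HFD against young ND and 1 in old ND against young ND, and without the filter on FPKM it was 0 in young HFD against young ND. In old HFD against old ND each of these FPKM settings called 1 gene, as the main fit did, but this gene was not Tfrc. In old HFD against young ND the count was 2 in place of 3 without the batch term, with RLE scaling, with only the groups compared and with DESeq2, Hamp being the gene lost each time. On log2(FPKM + 1) or log2(FPKM + 0.1) it was again 3, but these were Hamp, Ftl1 and Id1, all lower, and not Hamp2 or Tfrc, and without the FPKM filter it was 2, Hamp and Ftl1. Leaving out 1 mouse gave 0 to 2, 0 to 2, 0 to 1 (old HFD against young HFD) and 1 to 4 (old HFD against young ND).

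Of all genes, 475, 409, 1155, 304, 4100 and 0 were called in that order. Without the filter the counts were 1473, 1108, 2053, 1235 and, for age by diet, 587. With DESeq2 they were 1213, 1085, 1761, 850 and 7 (age by diet), and without the batch term 174, 266, 628 and 116. With only the groups compared they were 2302, 15, 48 (old HFD against young HFD) and 2094 (old HFD against young ND). Batch 1 alone gave 130, 15, 93, 9 and 919, and batch 2 alone 9, 16, 2, 0 and 617. On log2(FPKM + 1) they were 158, 252, 175, 109 and 1349, on log2(FPKM + 0.1) 186, 212 (old ND against young ND), 107 and 1349, and without the FPKM filter 152, 172, 39, 33 and 2237. Total-count scaling gave 160 in old HFD against young HFD. Leaving out 1 mouse gave 146 to 998, 84 to 823, 586 to 1592, 40 to 813 and, for age by diet, 0 to 1.

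The replicate numbers belong to different mice and did not pair them: in each comparison at least 1 of 6 same-numbered pairs had deviations correlated at 0.1 or less (lowest -0.30), and at most 4 of 6 mice correlated best with their own number. With the replicate block in place of batch, 0 of the 10 genes were called in young HFD against young ND, and 283 (young HFD against young ND), 131 (old HFD against young HFD) and 1 (age by diet) of all genes. The correlation of Hamp with Id1 was 0.54 and past the threshold on log2(FPKM + 1), and that with Tfrc was -0.78 and past it when group means were kept. On log2(FPKM + 1) the rank relations with all 4 genes passed after adjustment (rho = 0.52 for Id1, 0.35 for Smad7, -0.44 for Saa1 and -0.58 for Tfrc), and with group means kept those with Id1 and Smad7 (0.54 and 0.59).

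Depth was lowest in old HFD, down to 9200332 reads, and Hamp2 rested on 10 to 1463 reads a library. Rescaling by RLE or total counts changed the sign of no difference of 0.3 or more on the log2 scale.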
